A study of Homo sapiens with 9 samples.

Results

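The genes described here are SEZ6, SEZ6L and SEZ6L2, the 3 seizure-related 6 family genes, together with NCAM1, L1CAM, CD24 and UCHL1, 4 markers of neural and neuroendocrine cells. They were chosen by symbol, with earlier results of these data known. Every probe set annotated to exactly 1 of these 7 symbols was taken. This gave 30 probe sets, out of 54613 probe sets and 19775 genes on the array. A probe set is a group of short probes that together give 1 value for a transcript. The symbols match their label except for UCHL1, whose product is an enzyme inside the cell and not a surface protein.

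Expression was measured in H69, a human small cell lung cancer line that grows in suspension and has neuroendocrine features. Each group holds 3 arrays: cells kept for 24 h with PIK75 at 100 nM, cells kept for 24 h with TGX221 at a labelled 1 mM, and control cells, for which the protocol names the vehicle DMSO. All groups are of the same line and carry no further genetic change in the labels. PIK75 and TGX221 both inhibit phosphoinositide 3-kinases, lipid kinases that pass on growth factor signals. PIK75 is used as an inhibitor of the PIK3CA product and TGX221 of the PIK3CB product, and the comparisons ask what each did to the transcriptome. How selective either was at these doses was not tested. The labelled doses differ, and the files offer no check on the unit given for TGX221. Nothing in the labels says that the arrays of a group came from separate cultures, so the p-values measure the spread between these arrays, which may be technical.

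The proteins of the SEZ6 family span the membrane of neurons once, carry CUB and sushi domains outside the cell, and take part in dendrite and synapse formation. SEZ6 and SEZ6L are cut from the surface by the protease BACE1. NCAM1 and L1CAM are adhesion molecules of the immunoglobulin superfamily that bind like molecules on neighbouring cells, and NCAM1 is a routine diagnostic marker of small cell lung cancer. CD24 is a small, heavily glycosylated protein held in the membrane by a lipid anchor, and UCHL1 is a ubiquitin hydrolase that is abundant in neurons.

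The upstream sequences of the 3 genes that RefSeq's promoter table holds are shown because CD24, L1CAM and UCHL1 all had probe sets that fell with PIK75. Each line gives the 250 bases before 1 annotated start on GRCh38.p14, read 5' to 3' on the strand of the gene. The windows are chr4:41256678-41256927 on the plus strand, chr6:106975628-106975877 on the minus strand and chrX:153875945-153876194 on the minus strand. Capitals mark 2 motifs that were searched on both strands, GGGCGG (a GC box, the core letters of an SP1 site) and CAGCTG (an E-box).
UCHL1: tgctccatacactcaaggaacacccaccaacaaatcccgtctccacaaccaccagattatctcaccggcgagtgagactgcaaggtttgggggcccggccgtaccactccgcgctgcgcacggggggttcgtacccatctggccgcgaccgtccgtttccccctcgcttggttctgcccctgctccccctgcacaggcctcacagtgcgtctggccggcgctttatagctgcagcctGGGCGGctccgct
CD24: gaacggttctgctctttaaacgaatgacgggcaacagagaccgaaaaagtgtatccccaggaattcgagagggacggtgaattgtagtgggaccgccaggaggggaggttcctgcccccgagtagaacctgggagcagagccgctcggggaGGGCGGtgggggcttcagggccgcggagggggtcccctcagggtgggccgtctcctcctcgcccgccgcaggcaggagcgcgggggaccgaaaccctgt
L1CAM: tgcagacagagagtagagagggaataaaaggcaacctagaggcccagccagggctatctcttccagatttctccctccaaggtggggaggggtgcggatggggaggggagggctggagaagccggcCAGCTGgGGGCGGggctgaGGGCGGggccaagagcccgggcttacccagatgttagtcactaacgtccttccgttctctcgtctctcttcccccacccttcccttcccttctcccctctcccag

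GGGCGG stood 13 bases before the UCHL1 start and 99 bases before the CD24 start. The L1CAM window held CAGCTG 124 bases before the start and GGGCGG at 117 and 105 bases, with no overlap between them. Of 35116 promoter windows of the same length, 42.6% held GGGCGG and 14.0% held CAGCTG. A further motif, ACGTG, the core letters bound by hypoxia-inducible factors, is in none of the 6 windows of these 3 genes and in 18.5% of all windows. The further CD24 starts had no match and GGGCGG at 71 bases, and the second L1CAM window overlaps the one shown. These matches describe the letters of the windows alone.

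The values are log2 RMA values, and the median of all probe sets lay between 7.26 and 7.33 on the 9 arrays. Spikes added at hybridization averaged 11.52 to 11.56 (log2) on the PIK75 arrays, 11.18 to 11.28 on the TGX221 arrays and 11.15 to 11.24 on the control arrays, so they moved with PIK75. On PIK75 replicate 5 the 3' probes of actin exceeded its 5' probes by 1.13 on the log2 scale, a gap that widens where RNA is degraded or copied short, against 0.47 and 0.54 on the other PIK75 arrays, 0.26 to 0.41 with TGX221 and 0.24 to 0.44 in control. All PIK75 arrays thus lay above every other array in this gap, so it cannot be told apart from the treatment. No such difference was seen for GAPDH (-0.05 to 0.08 on all arrays). The 9 neuroendocrine markers measured were bright, with control means between 9.18 and 13.05 (log2). The 7 non-neuroendocrine markers had control means between 4.88 (the tuft cell marker POU2F3) and 9.06, with a median of 7.30 and 1 below 6. Bulk arrays cannot tell fewer cells of a type from less RNA per cell.

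With PIK75, 18 of the 30 probe sets fell and 5 rose at an adjusted p below 0.05 (limma, Benjamini-Hochberg over all 54613 probe sets), and 7 were not called. All 6 CD24 probe sets, 5 of 6 for SEZ6L, both for UCHL1, 3 of 7 for NCAM1, 1 of 2 for L1CAM and 1 of 5 for SEZ6L2 fell. The falls went up to 3.12-fold (CD24) and 12 of them passed 1.5-fold, while none of the rises did. SEZ6 had no called probe set as deposited. Of the 30, 16.7% were called higher and 60.0% lower, against a high background of 30.3% higher and 19.9% lower over all probe sets, 50.2% of which were called. The median log2 fold change was -0.40 over the 30 probe sets and 0.08 over all. Because the genes were chosen with earlier results known, these contrasts describe them and are not independent support for a difference from other genes. Without PIK75 replicate 5, the array with the highest actin ratio, 18 fell and 4 rose. The other PIK75 arrays also had higher actin ratios than every TGX221 and control array, so leaving out replicate 5 does not remove that difference.

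**Figure D1:**
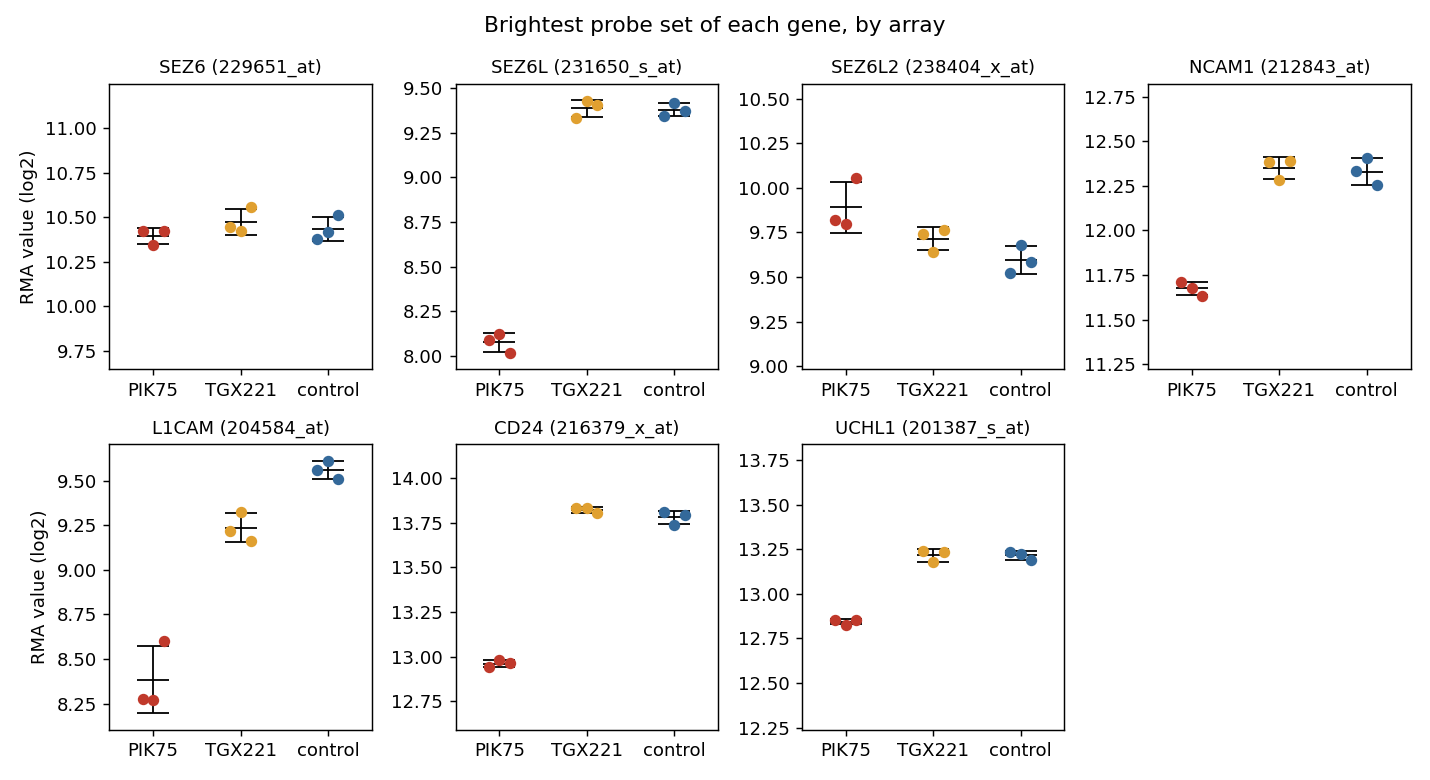
Log2 RMA values of the brightest probe set of each gene on every array, with PIK75, TGX221 and control from left to right; points are arrays, and the bar and whiskers are the mean and SD of 3 arrays. Each panel has its own vertical range, and the PIK75 points of SEZ6L, NCAM1, L1CAM, CD24 and UCHL1 lie below all other points of their panel.

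SEZ6, the founding member of its family, showed no change that passed the test as deposited. Centring the arrays on the hybridization spikes shifted every PIK75 difference from control by -0.35 on the log2 scale. Under that scaling 26 probe sets of the chosen genes were called lower, against 18 as deposited. The lack of a call for SEZ6 is thus stated for the deposited values alone. Probe set 229651_at read 10.42, 10.34 and 10.42 (log2) with PIK75, 10.44, 10.42 and 10.56 with TGX221, and 10.38, 10.42 and 10.51 in control. These 3 groups overlapped throughout. The PIK75 difference was -0.04 on the log2 scale with a 95% interval of -0.17 to 0.09 (limma, unadjusted p = 0.495, adjusted p = 0.571). The dimmer 243430_at read 7.22, 7.11 and 6.81 with PIK75, 7.23, 7.19 and 7.19 with TGX221, and 7.19, 7.16 and 7.37 in control. Its interval with PIK75, -0.40 to 0.01 around a difference of -0.19, included 0 (unadjusted p = 0.0617, adjusted p = 0.103), and the lowest value came from PIK75 replicate 5.

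SEZ6L, the family member expressed with SEZ6 in many neurons, fell the most of the 3. Probe set 231650_s_at read 8.09, 8.12 and 8.02 with PIK75, 9.33, 9.43 and 9.40 with TGX221, and 9.35, 9.42 and 9.37 in control. All PIK75 arrays were more than 1 log2 unit below every other array, and the TGX221 and control arrays overlapped. The PIK75 change was -1.30 (SE 0.0526, 2.47-fold lower, adjusted p = 8.16e-09), the smallest p among the 30 probe sets. Probe set 213609_s_at gave a like picture, with 7.76, 7.87 and 7.90 with PIK75, 9.11, 9.15 and 9.02 with TGX221, and 9.02, 9.15 and 9.25 in control. Its change with PIK75 was also -1.30 (SE 0.0680, adjusted p = 4.19e-08).

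The 3 SEZ6L probe sets whose IDs end in _x_at, which the array design marks as holding probes that may also match other sequences, fell by less. Probe set 211894_x_at averaged 8.04 ± 0.101 with PIK75, 8.63 ± 0.0917 with TGX221 and 8.57 ± 0.0478 in control (SD, n = 3 each), a change with PIK75 of -0.53 (adjusted p = 4.55e-05). For 216047_x_at the change was -0.42 (adjusted p = 0.00213) and for 207873_x_at -0.23 (adjusted p = 0.0159). The call of 207873_x_at was lost without PIK75 replicate 3 (adjusted p = 0.0622) or control replicate 5 (0.0665). The last probe set, 240709_at, was dim at 5.61 ± 0.0937 with PIK75, 5.50 ± 0.0210 with TGX221 and 5.57 ± 0.163 in control, and was not called.

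SEZ6L2, a family member also studied as a surface antigen of lung cancer, had probe sets called both ways. Probe set 218720_x_at read 7.95, 8.01 and 8.05 with PIK75, 8.27, 8.23 and 8.30 with TGX221, and 8.36, 8.39 and 8.26 in control, and fell by 0.34 on the log2 scale (adjusted p = 0.000375). Its PIK75 arrays lay below the others. The brightest, 238404_x_at, read 9.82, 9.80 and 10.05 with PIK75, 9.74, 9.64 and 9.76 with TGX221, and 9.52, 9.68 and 9.58 in control. Here the PIK75 arrays lay above all others, by 0.30 over control (adjusted p = 0.00654).

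Probe set 223458_at of SEZ6L2 read 8.76, 8.86 and 8.83 with PIK75, 8.87, 8.91 and 8.88 with TGX221, and 8.71, 8.63 and 8.71 in control. Both inhibitors lay above control without overlap. The PIK75 rise of 0.14 was called narrowly (adjusted p = 0.0456) and lost in most alternatives, among them without PIK75 replicate 5. The TGX221 difference of 0.20 had an adjusted p of 0.0982, the smallest of the 30 in that comparison. Probe set 233337_s_at stood at -0.14 with PIK75 (adjusted p = 0.0773) and 238406_x_at at 0.08 (adjusted p = 0.331). The family thus ranged, with PIK75, between -1.30 (SEZ6L) and 0.30 (SEZ6L2).

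NCAM1 fell at its 2 brightest probe sets. Probe set 212843_at read 11.71, 11.68 and 11.63 with PIK75, 12.38, 12.28 and 12.39 with TGX221, and 12.33, 12.40 and 12.25 in control. Probe set 227394_at read 11.45, 11.41 and 11.46 with PIK75, 12.02, 12.002 and 12.03 with TGX221, and 12.02, 12.11 and 12.04 in control. In both, every PIK75 array was below every other array and TGX221 overlapped control. The changes with PIK75 were -0.66 (SE 0.0570, 1.58-fold lower, adjusted p = 2.27e-06) and -0.62 (SE 0.0486, adjusted p = 9.85e-07).

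A further NCAM1 probe set, 231532_at, read 7.29, 7.80 and 7.26 with PIK75, 7.98, 8.08 and 8.05 with TGX221, and 8.06, 8.07 and 8.12 in control. It fell by 0.63 (adjusted p = 0.000832), with PIK75 replicate 3 nearest to the control arrays. The dimmer 229799_s_at and 214952_at rose with PIK75, by 0.22 (adjusted p = 0.00827) and 0.27 (adjusted p = 0.0176). Probe set 214952_at averaged 6.29 ± 0.0497 with PIK75, 6.23 ± 0.119 with TGX221 and 6.02 ± 0.155 in control. Probe sets 209968_s_at and 217359_s_at were not called, at -0.04 and 0.06.

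L1CAM, whose cytoplasmic tail binds ankyrins, was called in opposite directions at its 2 probe sets. Probe set 204584_at read 8.28, 8.27 and 8.60 with PIK75, 9.22, 9.33 and 9.16 with TGX221, and 9.56, 9.61 and 9.51 in control. The 3 groups did not overlap: PIK75 was lowest, TGX221 between and control highest. The PIK75 change was -1.18 (SE 0.0844, 2.26-fold lower, adjusted p = 4.55e-07), and TGX221 stood at -0.32 with a 95% interval of -0.51 to -0.14 and an adjusted p of 0.101. Probe set 204585_s_at read 8.04, 8.27 and 8.22 with PIK75, 7.92, 7.94 and 7.97 with TGX221, and 8.00, 7.89 and 7.85 in control. It rose with PIK75 by 0.26 (adjusted p = 0.00680), with all 3 PIK75 arrays above the other 6.

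Probe sets called both ways were found for 3 of the 7 genes: SEZ6L2, NCAM1 and L1CAM. Over the 10523 genes with more than 1 probe set, 14.1% had calls in both directions with PIK75. This share is not matched for the number of probe sets per gene, which was 7 for NCAM1 and 5 for SEZ6L2. All 5 rises turned negative when the arrays were centred on the hybridization spikes, which lowers the median of all probe sets by 0.35 on the log2 scale. None of the 5 was called with centring on the poly-A spikes, and 1 was with cyclic loess.

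CD24, which binds P-selectin and marks progenitor and epithelial tumour cells, fell at every probe set. The brightest, 216379_x_at, read 12.94, 12.98 and 12.96 with PIK75, 13.83, 13.83 and 13.81 with TGX221, and 13.81, 13.74 and 13.79 in control. Probe set 208650_s_at read 11.48, 11.41 and 11.11 with PIK75, 12.96, 12.98 and 12.86 with TGX221, and 12.84, 12.70 and 13.00 in control. Probe set 209772_s_at read 10.39, 10.17 and 9.85 with PIK75, 12.07, 11.75 and 11.86 with TGX221, and 11.84, 11.71 and 11.78 in control. In all 3 the PIK75 arrays stood well below the rest, and the TGX221 and control arrays overlapped.

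The size of the CD24 fall differed by probe set. The 3 _x_at probe sets fell by 0.82 (216379_x_at), 0.81 (209771_x_at) and 0.86 (208651_x_at) on the log2 scale. The 3 _s_at probe sets, whose probes may be shared by several transcripts, fell by 1.04 (266_s_at), 1.51 (208650_s_at) and 1.64 (209772_s_at). The last is 3.12-fold lower with PIK75 (SE 0.117, adjusted p = 4.42e-07). In 208650_s_at, 209772_s_at and 266_s_at the lowest of the PIK75 arrays was replicate 5, the one with the highest actin ratio. Whether that ratio has a part in these values was not tested. CD24 has near-identical pseudogene copies in the human genome, and the files do not show which probes match them, so its values are uncertain in that respect.

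UCHL1, the neuronal hydrolase that releases ubiquitin from small adducts, fell at both probe sets. Probe set 201387_s_at read 12.85, 12.83 and 12.85 with PIK75, 13.24, 13.18 and 13.23 with TGX221, and 13.24, 13.23 and 13.19 in control. The PIK75 arrays differed among themselves by far less than their distance to the rest, and the change was -0.37 (SE 0.0472, 1.30-fold lower, adjusted p = 5.23e-05). Probe set 1555834_at read 6.81, 6.77 and 6.85 with PIK75, 7.005, 7.38 and 7.34 with TGX221, and 7.31, 7.30 and 7.56 in control. It fell by 0.58 (SE 0.0974, adjusted p = 0.000493), and TGX221 replicate 2 was the lowest of the other 6 arrays.

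**Figure D2:**
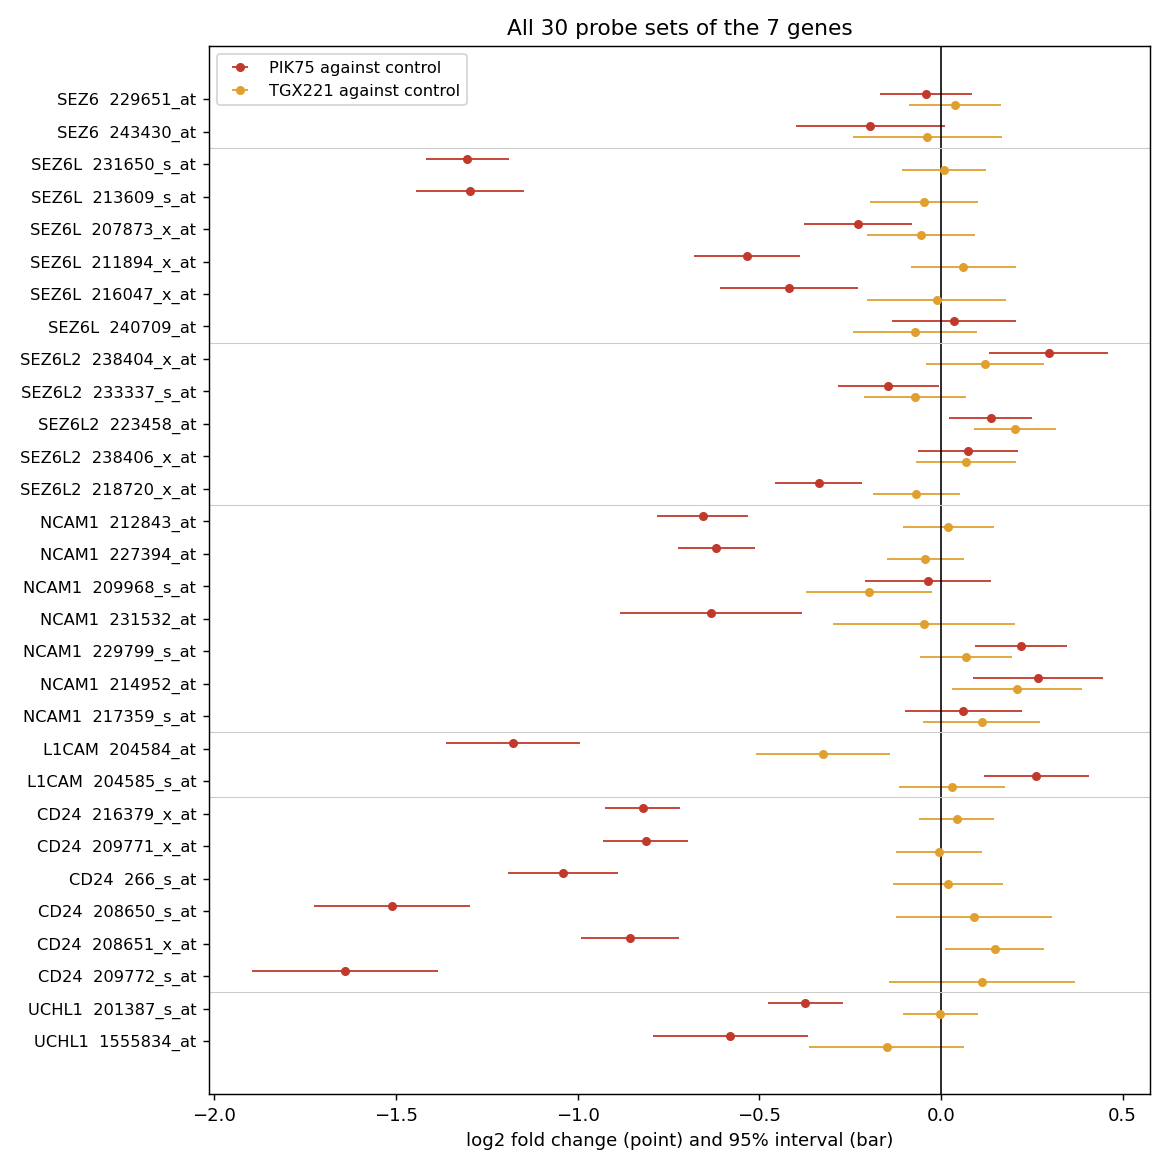
Log2 fold changes of all 30 probe sets against control, with PIK75 in red and TGX221 in orange; points are estimates and bars 95% intervals from the fit. The PIK75 points reach -1.64 (CD24) while all TGX221 points lie between -0.32 (L1CAM 204584_at) and 0.21 (NCAM1 214952_at).

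By arrays alone, 19 of the 30 probe sets had all 3 PIK75 arrays below all 3 control arrays, 5 had them all above, and 6 overlapped. Over all probe sets, 21.4% lay below in this way and 36.2% above. Grouped by type, the falls were 5 of 10 among IDs ending in plain _at, 6 of 11 among _s_at and 7 of 9 among _x_at. The rises were 2, 2 and 1. Over all probe sets of any type, 19.9% were called lower and 30.3% higher. Shares by type were not computed, and most of the _x_at falls were of CD24 and SEZ6L, so these counts describe the 30 alone.

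TGX221 left all 30 probe sets uncalled against control. The median log2 fold change was 0.01, against 0.00 over all probe sets, and the 95% intervals of the 30 reached no further than -0.51 and 0.39. The background is low as well, with 0.269% of all probe sets called, 0.207% as higher and 0.0623% as lower. At an unadjusted p below 0.05 there were 5 probe sets: SEZ6L2 223458_at (0.20) and L1CAM 204584_at (-0.32), given above, NCAM1 214952_at (0.21) and 209968_s_at (-0.20), and CD24 208651_x_at (0.15, adjusted p = 0.264). L1CAM 204584_at was called without PIK75 replicate 5 (adjusted p = 0.0472), since all arrays share 1 estimate of spread. These intervals do not show that TGX221 left the genes unchanged.

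Set against TGX221 at its different dose, PIK75 lowered 17 of the 30 probe sets and raised 1, with 12 not called. Of the 30, 3.33% were called higher and 56.7% lower, against 20.3% and 16.9% of all probe sets, 37.2% of which were called. The median difference was -0.39 for the 30 and 0.06 for all. SEZ6L 231650_s_at differed by -1.31 on the log2 scale (adjusted p = 9.74e-09) and CD24 209772_s_at differed by -1.75 (adjusted p = 3.35e-07). The other differences were -0.68 for NCAM1 212843_at (adjusted p = 2.15e-06), -0.85 for L1CAM 204584_at (adjusted p = 8.27e-06) and -0.37 for UCHL1 201387_s_at (adjusted p = 6.42e-05). The one probe set that was higher with PIK75 than with TGX221 was L1CAM 204585_s_at (0.23, adjusted p = 0.0172), which was not called, and turned negative, with hybridization spike centring. As deposited, SEZ6 stood at -0.08 (229651_at) and -0.16 (243430_at), uncalled, with intervals of -0.21 to 0.05 and -0.36 to 0.05.

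The other genes of the surrounding pathways are read through the brightest probe set of each. Over all 19775 genes read in this way, 33.3% were called higher and 24.7% lower with PIK75, and 0.278% and 0.0455% with TGX221. None of the 95 genes in the 9 lists was called with TGX221 (limma), and 14 had an unadjusted p below 0.05. With hybridization spike centring no gene of any list rose with PIK75, and the rises named below all turned negative or lost their call.

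Of 8 relatives of SEZ6 and its sheddases, 3 fell and 2 rose with PIK75, with a median of -0.02. With hybridization spike centring, which shifts all genes down, 6 fell at a median of -0.37. NETO2, a CUB-domain partner of glutamate receptors, fell by 0.85 (adjusted p = 1.46e-07). The protease BACE2 fell by 0.71 (adjusted p = 5.83e-05), while BACE1, which cuts SEZ6 and SEZ6L, stood at -0.14 and was not called (adjusted p = 0.0748). CSMD3, a large CUB and sushi protein, fell by 0.54 (adjusted p = 9.50e-05). Its relatives CSMD1 and CSMD2 rose by 0.22 and 0.20 as deposited, and neither was called with the arrays centred on their median.

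Of 9 genes around NCAM1, 2 fell and 4 rose, with a median of -0.09 that became 0.01 with cyclic loess. All 4 rises were lost with poly-A spike centring and with cyclic loess, and 5 genes fell with hybridization spike centring. PTK2, the focal adhesion kinase, fell by 0.78 (adjusted p = 1.49e-06). ST8SIA4, which puts polysialic acid on NCAM1, fell by 0.62 (adjusted p = 0.000765), while its counterpart ST8SIA2 stood at 0.21 (adjusted p = 0.00481). GFRA1, a GDNF receptor that also works with NCAM1, stood at 0.23 with PIK75 (adjusted p = 0.00755) and 0.28 with TGX221 (adjusted p = 0.0698). ST8SIA3 stood at 0.20 with both.

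Of 12 genes of the L1 family with its anchors and sheddases, 8 fell and 2 rose, with a median of -0.48. ANK3, which encodes the ankyrin that anchors L1-type molecules at the axon's initial segment, averaged 7.60 ± 0.136 with PIK75, 9.17 ± 0.0640 with TGX221 and 9.13 ± 0.0450 in control (SD, n = 3 each), a change of -1.53 (adjusted p = 1.65e-08). The contactin CNTN1 fell by 1.23 (adjusted p = 5.92e-08), and the L1 family members NFASC and NRCAM by 0.88 and 0.63. CNTN2 rose by 0.37 (adjusted p = 0.000267), and the L1 sheddases ADAM10 and ADAM17 fell by 0.49 and 0.34. With hybridization spike centring 10 of the 12 fell at a median of -0.83, against 8 under the other scalings.

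Among 16 other neural adhesion genes of the immunoglobulin superfamily and their partners, 6 fell and 4 rose, with a median of -0.02. With cyclic loess 8 fell at a median of -0.14, and with hybridization spike centring 12 fell at a median of -0.38. NEGR1 fell by 1.66 (adjusted p = 2.73e-07), CNTN4 by 0.76, CNTNAP2 by 0.70 and NTM by 0.54, all with PIK75. CNTN4 stood at -0.34 with TGX221 (adjusted p = 0.0616).

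Of 6 genes of ubiquitin hydrolysis and supply, 4 fell and 2 rose, with a median of -0.25. With cyclic loess 3 fell at a median of -0.13, and with hybridization spike centring 5 fell at a median of -0.60. The hydrolases UCHL3 and UCHL5, relatives of UCHL1, fell by 0.85 (adjusted p = 7.10e-07) and 0.64 (adjusted p = 6.92e-06), and the ubiquitin gene UBB by 0.29. USP14, a hydrolase of the proteasome, rose by 0.37 (adjusted p = 0.000133).

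Of 19 other surface antigens of small cell lung cancer and neural tumours, 8 fell and 3 rose, with a median of -0.02. With hybridization spike centring 16 fell at a median of -0.37, and with poly-A spike centring none rose. The hyaluronan receptor CD44 averaged 7.37 ± 0.165 with PIK75, 9.22 ± 0.079 with TGX221 and 9.43 ± 0.118 in control (SD, n = 3 each), a change of -2.06 (adjusted p = 9.78e-09). CEACAM5 fell by 1.55 (adjusted p = 1.27e-08), CD47 by 0.72 and the receptor KIT by 0.70. The tetraspanin CD9 stood at 0.29 with PIK75 (adjusted p = 0.00210) and 0.23 with TGX221 (adjusted p = 0.0983).

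**Figure D3:**
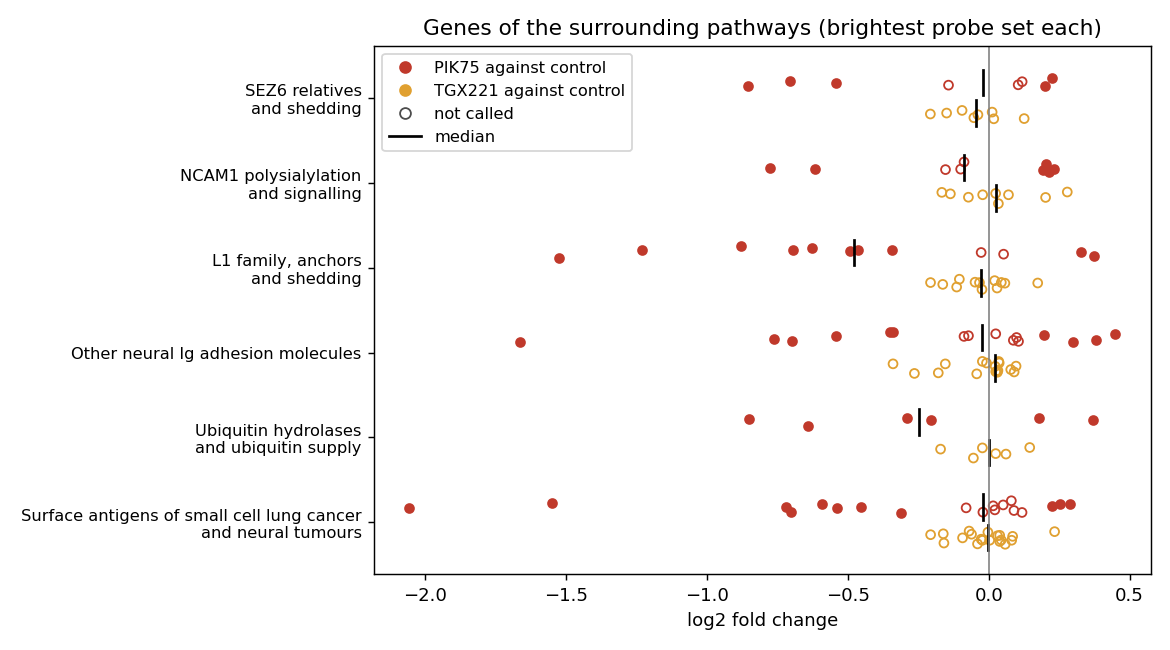
Log2 fold changes against control of the genes in 6 lists (rows), PIK75 in red above TGX221 in orange; each point is the brightest probe set of a gene, filled where called, and black bars are medians. The L1 family has the lowest of the 6 medians with PIK75, -0.48, and no TGX221 point is filled.

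Markers of cell state moved beside these genes. Of 9 neuroendocrine markers, 5 fell and 1 rose with PIK75. Under the other scalings between 4 (cyclic loess) and 8 (hybridization spikes) fell. DDC, an amine-making enzyme, fell by 1.21 (adjusted p = 8.72e-09), CHGB by 0.51, SCG2 by 0.41 and GRP by 0.38, while CHGA stood at -0.05 (adjusted p = 0.422). SYP, a synaptic vesicle protein, stood at 0.21 with PIK75 (adjusted p = 0.0282) and 0.29 with TGX221 (adjusted p = 0.0888), and its PIK75 call was lost with the arrays centred on their median. The summed level of the 9 lay at 14.84 to 14.87 (log2) with PIK75, 15.18 to 15.21 with TGX221 and 15.15 to 15.19 in control. Of 7 non-neuroendocrine markers, 2 fell (ANXA1 by 0.61, HES1 by 0.37) and 1 rose (REST, 0.18), against 5 falls with hybridization spike centring. Their median of 0.12 turned negative with cyclic loess and with hybridization spike centring.

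Of 9 markers of blood, stromal, endothelial, liver and alveolar cells, 4 rose with PIK75: COL1A2 by 0.40, COL1A1 by 0.26, PECAM1 by 0.25 and SFTPC by 0.21. RMA values have no zero; 1 of the 9 averaged below 6 (log2) with PIK75, 2 with TGX221 and 2 in control. Their median of 0.20 turned to -0.15 with hybridization spike centring, where 2 fell, and 1 of the 4 rises was left with poly-A spike centring. The summed level of the 9 was 11.20 to 11.24 (log2) with PIK75, 10.90 to 10.97 with TGX221 and 10.94 to 11.02 in control. The part of these markers in the values of the 7 genes was not tested.

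The genes most like each of the 7 were found by distance between log2 values over the 9 arrays, each relative to its control mean, among 17341 genes. SEZ6L 231650_s_at was nearest to LINC01315 (distance 0.145), DCX (0.160) and SEH1L (0.169). CD24 216379_x_at was nearest to SCCPDH (0.0842), POLR3E (0.107) and BUB3 (0.120). NCAM1 212843_at was nearest to PRPF8 (0.103), ENC1 (0.124) and IDI1 (0.132). For L1CAM 204584_at they were PHLDA2 (0.201), ADAMTS18 (0.207) and CREG1 (0.249), which all stood at -0.26 to -0.32 with TGX221 as L1CAM did. UCHL1 201387_s_at was nearest to WDR13 (0.0705), C10orf95-AS1 (0.0905) and RNF220 (0.0911). SEZ6 was nearest to ALKBH4 (0.0833), METTL9 (0.108) and COPB1 (0.110), and SEZ6L2 238404_x_at to LOC102723831 (0.109), SNX33 (0.121) and ATF7-AS1 (0.124). With 9 arrays in 3 groups, this distance mostly reads the 2 differences from control.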

How the data were processed

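Total RNA (2 ug per array) of H69 cells was measured on 9 arrays. The authors deposited 1 log2 value per probe set and array, made with RMA (no version given) per the submitters' processing notes. RMA forces 1 distribution on the single probes of all arrays and so can hide a shift shared by most genes. The medians of the probe set values still differed. They were 7.31 to 7.33 with PIK75, 7.27 to 7.29 with TGX221 and 7.26 to 7.27 in control. The deposited log2 values were used as they stood; no raw files were used, and 0 sample columns were left unmapped. Of 54675 probe sets, 62 Affymetrix controls were left out, and 41091 carry exactly 1 symbol, 1801 several and 11721 none in the platform annotation used.

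Groups were compared with limma 3.58.1 in R 4.3.3 (lmFit and eBayes, 3 group means, all 9 arrays, prior degrees of freedom 5.632, residual 6). Adjustment of p-values ran over the 54613 probe sets by Benjamini and Hochberg, with calls below 0.05. An exact test of 3 arrays against 3 cannot go below p = 0.1 and was not used. The fit was tested on simulated data. Tables and figures were made in Python 3.11.15 with pandas 2.3.3, numpy 2.4.6 and matplotlib 3.10.9.

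The genes and lists were chosen with earlier results of these data known. Named list genes are up to 4 with the smallest p for PIK75 and up to 2 for TGX221 per list. BACE1 and ADAM10 were added. All list genes are read at the brightest probe set, the one with the highest mean over the arrays. List entries with no single-symbol probe set are not analysed here. Promoter windows came from RefSeq's table for GRCh38.p14, which matched 3 of the 7 genes by symbol. Other scalings, 1 value per gene, other variance models, stricter thresholds, a replicate block and leaving out each array were tried. No 2 arrays were identical. The number of arrays limits the precision.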

Additional observations from a re-analysis of the deposited data

How the results depend on the processing

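Of the 23 member calls for PIK75 against control, 17 were made under every alternative scaling, variance model, replicate block and left-out array that gave a value, and of the 18 against TGX221, 17. The exceptions were the 5 rises and SEZ6L 207873_x_at against control, and L1CAM 204585_s_at against TGX221. UCHL1 1555834_at was not tested without dim probe sets, since that filter drops it: 17 falls against control and 16 against TGX221 are left there. The rises depend most on the setting. Against control, the 5 PIK75 rises became 3 with median centring, 0 with poly-A spikes, 0 with hybridization spikes, 1 with cyclic loess, 3 at an adjusted p below 0.01 and 0 at 1.5-fold; the brightest probe set per gene gave 1 and the gene mean 0, and either gave 5 falls in place of 18, since 7 genes are then tested. All calls for PIK75 against control, 27400, became 11947 (brightest), 12369 (mean), 16203 (poly-A spikes), 38423 (hybridization spikes), 18121 (p below 0.01) and 5139 (1.5-fold). With hybridization spikes the member falls went from 18 to 26, and the falls over all 54613 probe sets from 10846 to 37576. The contrast between the 30 and all probe sets is thus narrower there than as deposited. The split of higher calls moved: 60.4% as deposited, 45.9% with median centring, 30.4% with poly-A spikes, 2.2% with hybridization spikes and 42.2% with cyclic loess.

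With hybridization spikes the direction turned, with a call on at least 1 side, in PIK75 against control for L1CAM 204585_s_at (-0.0889), NCAM1 214952_at (-0.0841), 217359_s_at (-0.29) and 229799_s_at (-0.13), SEZ6L2 223458_at (-0.22), 238404_x_at (-0.0557) and 238406_x_at (-0.28) and SEZ6L 240709_at (-0.32). In PIK75 against TGX221 it did for L1CAM 204585_s_at (-0.0554), NCAM1 214952_at (-0.23), SEZ6L2 238406_x_at (-0.28) and SEZ6L 240709_at (-0.18). There NCAM1 209968_s_at, NCAM1 229799_s_at and SEZ6L2 238404_x_at turned negative too, uncalled on both sides. These turns follow from the shift common to all probe sets, -0.35 against control and -0.29 against TGX221 (-0.15 with poly-A spikes).

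For TGX221 against control, array weights gave 1 rise (SEZ6L2 223458_at) and 1 fall (L1CAM 204584_at) among the members, and hybridization spikes 1 fall. All its calls, 147, became 239 (brightest), 30 (mean), 12 (median), 927 (poly-A spikes), 886 (hybridization spikes), 84 (cyclic loess), 270 (without dim probe sets), 0 (only the 2 groups), 2115 (array weights), 0 (p below 0.01) and 4 (1.5-fold). For PIK75 against TGX221 the 1 rise became 0 with the brightest probe set, the mean, either spike centring, p below 0.01 or 1.5-fold, and 2 without dim probe sets; the 17 falls became 5 (brightest), 5 (mean) and 26 (hybridization spikes), and all 20304 calls became 9379, 9608 and 34963, with 13106 at p below 0.01 and 4294 at 1.5-fold. Beyond fewer tests and stricter thresholds, the cause was not tested.

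Leaving out 1 array, PIK75 against control gave 3 to 5 rises, 17 to 20 falls and 22309 to 27186 calls in all; 3 rises were left without control replicate 1 or PIK75 replicate 3. TGX221 against control gave 0 to 0 rises, 0 to 1 falls and 0 to 959 calls: 0 without any 1 control array or TGX221 replicate 2 or 5, 1 without PIK75 replicate 1 or 3, 266 without PIK75 replicate 5 and 959 without TGX221 replicate 3. PIK75 against TGX221 gave 0 to 2 rises, 17 to 18 falls and 15923 to 19913 calls. Deviations of same-numbered arrays from their group means had correlations of -0.07 to 0.22, the highest for replicate 5 of PIK75 and TGX221. With 3 arrays a group, these correlations do not settle whether the numbers pair the arrays. With the replicate block PIK75 against control kept 4 rises, 18 falls and 25970 calls, TGX221 against control 0 calls, and PIK75 against TGX221 0 rises.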

Other observations

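The smaller fall of the _x_at probe sets of SEZ6L and CD24 was set beside all genes with a like fall, SEZ6L and CD24 included. In 134 genes with both kinds of probe set and a mean log2 fold change with PIK75 of -0.5 or lower, the median change was -0.65 for _x_at and -0.74 for the other probe sets, and _x_at fell less in 83 of them (61.9%). In the 16 genes at -1 or lower, CD24 among them, both medians were -1.31, and _x_at fell less in 8. These counts describe the arrays and carry no test.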
